A study of Mus musculus with 16 samples.

Results

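The 50 genes described here encode the machinery of mitosis, from the kinase that starts it to the proteins that cut the daughter cells apart. They were taken as a list of symbols, chosen with earlier results of these data known. For each, the probe set with the highest mean log2 signal over all arrays was used among those annotated to that gene alone, and all 50 genes had one, of 18193 genes so annotated. Liver RNA of mice was measured on 16 Affymetrix arrays, with 4 arms sampled once each on days 0, 2, 7 and 14 of regrowth after part of the liver had been cut away (partial hepatectomy). All mice were labelled Metff/ff:ERCre+/+ on a 129SV/C57BL/6 background, so the MET_FLOX arm carries the floxed Met alleles and the recombinase too. In MET_KO, exon 16 of Met, the gene of the HGF receptor, had been deleted through a tamoxifen-inducible system. MET_FLOX_canertinib and MET_KO_canertinib had the same genotypes and canertinib, a drug that blocks EGFR-family kinases, mixed into the food to reach 80 mg/kg. The age of the mice, the promoter of the recombinase, whether the MET_FLOX mice received tamoxifen, and whether an array holds 1 liver or a pool are not stated.

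In mitosis condensin compacts the chromosomes, the kinetochore couples each centromere to spindle microtubules, and the spindle checkpoint holds the cell until every chromosome is attached. The anaphase-promoting complex then marks cyclins and securin for destruction, and a ring guided by the central spindle divides the cell. Transcripts of these genes are low in resting hepatocytes and accumulate in late S phase and G2. Many of their promoters pair CCAAT boxes, which NF-Y binds, with a TTTGAA or TTTAAA element near the start site, the cell cycle genes homology region read by the MuvB complexes.

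RefSeq promoter windows (GRCm38.p6, 250 bases before to 50 after a start site) were matched for 41 of the 50 genes. TTTGAA or TTTAAA within 50 bases of the start, on either strand, was held by 30 of the 41 (73.2%), against 9.5% of the 27025 genes with a window. CCAAT on either strand was held by 30 (73.2%, against 41.1%), and both elements in these places by 27 (65.9%, against 3.9%). A match is a description of the letters and not a test of binding. The windows of 5 genes are printed, chosen after their signals were seen, with every match to these elements in capitals on either strand. On the printed strand a reversed CCAAT box reads ATTGG, a reversed TTTGAA reads TTCAAA, and the remaining element is its own reverse. Top2a, Cdk1, Ccnb2 and Ube2c show the paired arrangement. In Ube2c CCAAT boxes of both strands overlap. Nuf2, whose signal at day 2 is among the most increased, holds none of the letters in this window.
Top2a, chr11:99024140-99024439, minus strand: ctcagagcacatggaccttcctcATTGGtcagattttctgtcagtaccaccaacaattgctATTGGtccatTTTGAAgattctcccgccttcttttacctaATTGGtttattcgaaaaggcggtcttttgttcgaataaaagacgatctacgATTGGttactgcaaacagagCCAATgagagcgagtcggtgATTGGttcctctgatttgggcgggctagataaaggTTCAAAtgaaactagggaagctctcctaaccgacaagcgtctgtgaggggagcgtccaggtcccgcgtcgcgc
Cdk1, chr10:69352863-69353162, minus strand: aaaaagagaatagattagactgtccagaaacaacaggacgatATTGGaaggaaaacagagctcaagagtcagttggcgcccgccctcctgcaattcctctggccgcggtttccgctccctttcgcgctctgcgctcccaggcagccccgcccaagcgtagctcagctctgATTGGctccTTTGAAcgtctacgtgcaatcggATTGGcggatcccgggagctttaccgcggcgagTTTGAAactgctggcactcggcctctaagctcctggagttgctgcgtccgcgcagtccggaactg
Ccnb2, chr9:70421505-70421804, minus strand: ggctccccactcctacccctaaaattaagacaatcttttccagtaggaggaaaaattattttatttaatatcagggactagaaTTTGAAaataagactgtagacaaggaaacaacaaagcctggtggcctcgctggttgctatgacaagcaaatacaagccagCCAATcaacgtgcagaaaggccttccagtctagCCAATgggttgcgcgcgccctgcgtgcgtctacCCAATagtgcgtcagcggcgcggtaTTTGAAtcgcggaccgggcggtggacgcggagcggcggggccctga
Ube2c, chr2:164769679-164769978, plus strand: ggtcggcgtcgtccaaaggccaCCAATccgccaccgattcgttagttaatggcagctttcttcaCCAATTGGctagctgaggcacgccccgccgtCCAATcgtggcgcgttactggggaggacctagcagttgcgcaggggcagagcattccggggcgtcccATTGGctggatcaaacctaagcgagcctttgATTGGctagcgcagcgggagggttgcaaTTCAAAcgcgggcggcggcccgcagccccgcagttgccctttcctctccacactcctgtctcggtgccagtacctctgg
Nuf2, chr1:169531415-169531714, minus strand: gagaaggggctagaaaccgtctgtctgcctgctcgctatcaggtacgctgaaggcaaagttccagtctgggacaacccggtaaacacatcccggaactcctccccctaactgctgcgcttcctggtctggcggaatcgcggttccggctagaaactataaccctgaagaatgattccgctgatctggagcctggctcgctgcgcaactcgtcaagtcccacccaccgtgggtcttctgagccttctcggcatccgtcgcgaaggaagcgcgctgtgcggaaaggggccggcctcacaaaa

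The deposited values are MAS5 signals on a linear scale. Array medians ran from 156.4 to 265, and their largest gap parts 6 low arrays (days 0, 2 and 7 of the arms without canertinib) from 10 high ones, here called the array sets. The Gapdh 3' to 5' ratio, a sign of RNA quality, was 0.765 to 0.869 in the arms without canertinib and 0.950 to 2.24 in those with it. Hepatocyte markers (6 of 6 measured, Alb among them) lay above the median on every array. No array is a replicate of another, so differences between single arrays are given without a test.

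Signals of the mitosis genes were highest at day 2 in the MET_FLOX, MET_KO and MET_FLOX_canertinib arms, and differed least from day 0 in the arm with both blocks. At day 0, 23 to 31 of the 50 genes lay under the median of their own array, and at day 2 there were 2 for MET_FLOX, 1 for MET_KO, 3 for MET_FLOX_canertinib and 16 for MET_KO_canertinib. The middle signal of the 50 genes went from 202.2 at day 0 to 1209 at day 2 in MET_FLOX, from 134.3 to 1847 in MET_KO, from 227.7 to 1264 in MET_FLOX_canertinib, and from 212 to 367 in MET_KO_canertinib. On the scale of log2(signal + 16), on which all differences below are given, the median change from day 0 to day 2 was 2.47 for MET_FLOX and 3.25 for MET_KO, and with the drug it was 1.92 for MET_FLOX_canertinib and 0.54 for MET_KO_canertinib. The medians over all 13577 genes tested were -0.15, -0.10, 0.02 and 0.02. In bulk tissue, fewer dividing cells and less RNA in each dividing cell cannot be told apart.

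**Figure D1:**
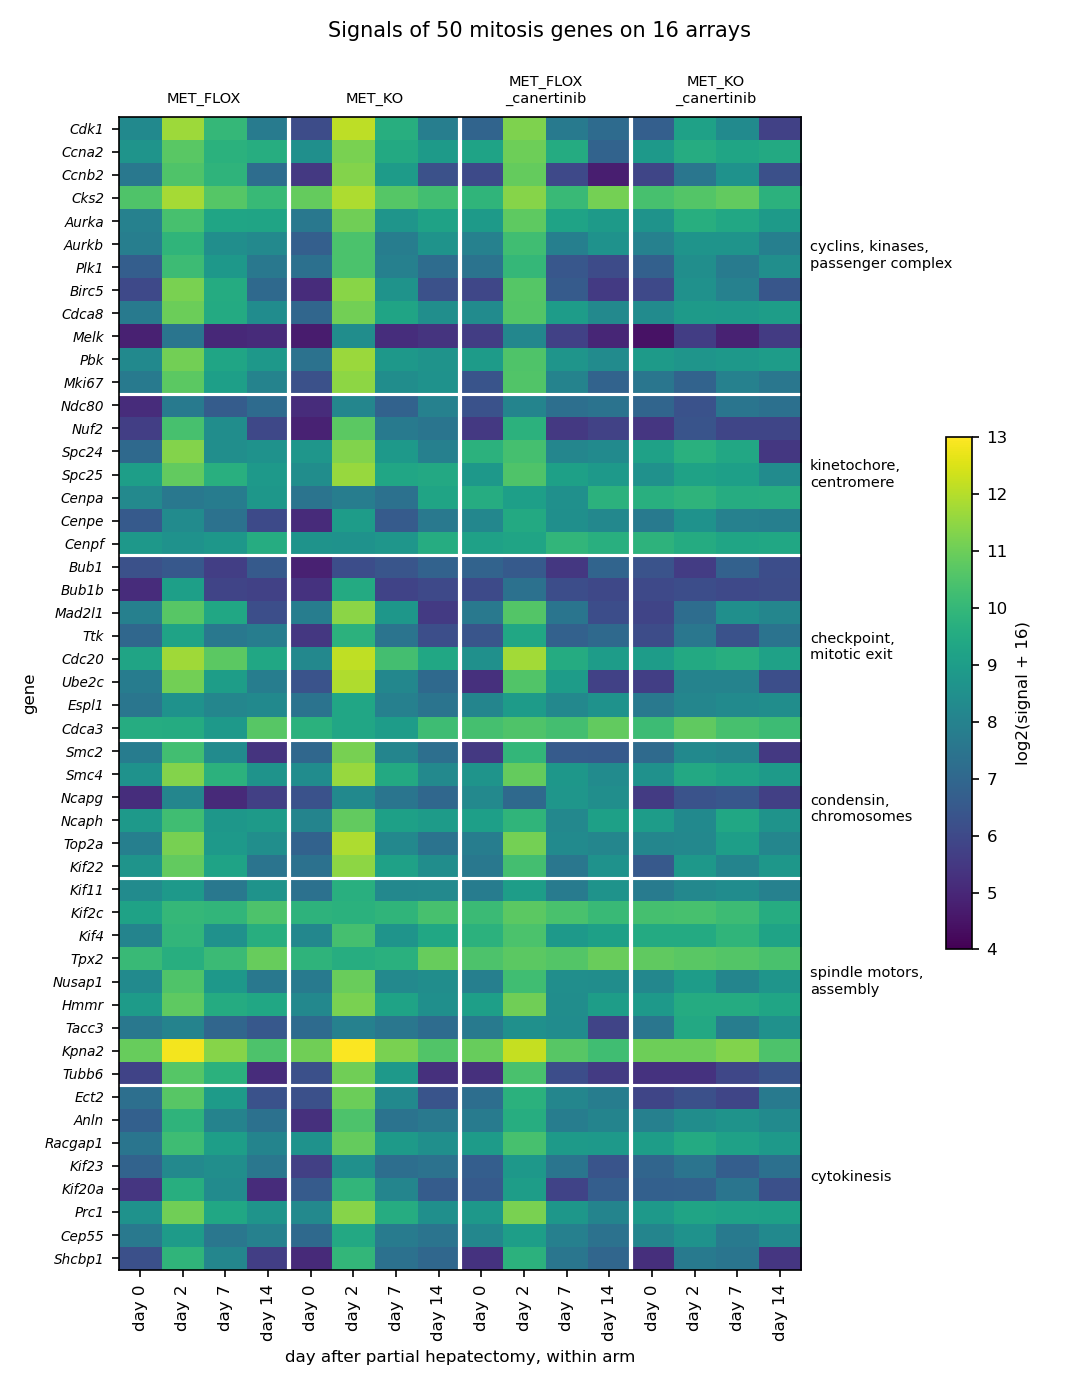
Signals of the 50 mitosis genes (rows, grouped by role) on the 16 arrays (columns, days 0 to 14 within each arm), as log2(signal + 16) in colour. The day 2 columns of MET_FLOX, MET_KO and MET_FLOX_canertinib are bright for most rows; that of MET_KO_canertinib is not.

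For 39 of the 50 genes (78%) the day 2 signals of the other 3 arms all exceeded all 12 arrays of days 0, 7 and 14, which held for 1.92% of the genes tested. For 43 genes (86%, against 21.3% of the genes tested) these 3 day 2 signals all exceeded that of MET_KO_canertinib at day 2. MET_KO at day 2 held the highest signal of all 16 arrays for 38 genes, and MET_KO at day 0 the lowest for 20. These counts were not made over all genes. Relative to MET_FLOX, MET_KO was higher at day 2 for 43 genes, with a median difference of 0.43, and lower at day 0 for 37 genes, with a median of -0.63. Over the 13577 genes tested MET_KO was higher at day 2 for 6908, with a median of 0.0096. At day 0 it was higher for 6177 of them, with a median of -0.05. The larger change of the 50 genes in MET_KO thus comes from both its day 0 and its day 2 array.

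**Figure D2:**
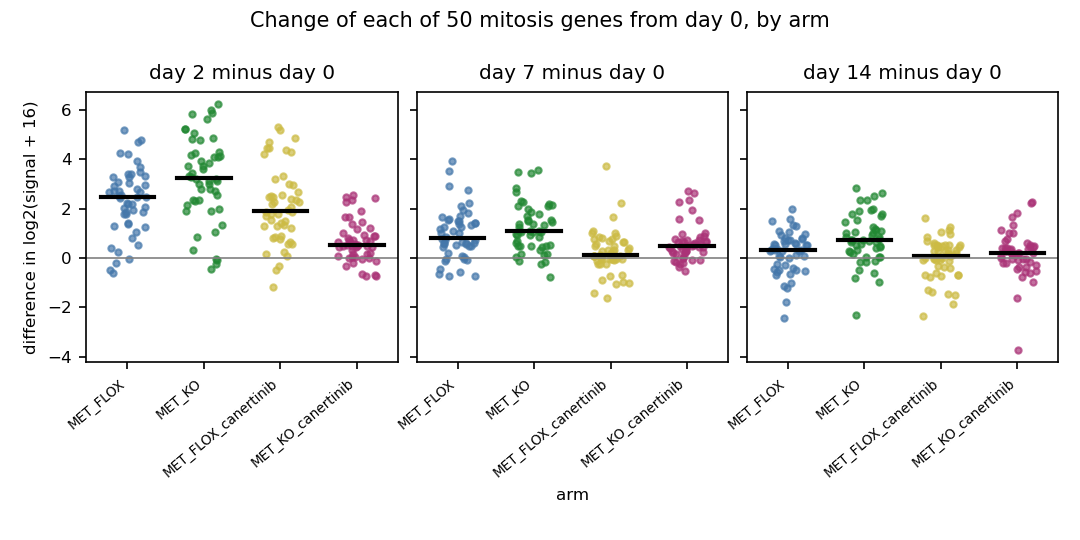
Difference from day 0 in log2(signal + 16) at days 2, 7 and 14, by arm; each point is 1 of the 50 genes and the bar is their median. At day 2 the medians are 2.47, 3.25, 1.92 and 0.54 in the order of the axis, and at day 14 they are 0.34, 0.74, 0.10 and 0.20. Over all genes tested the day 14 medians are 0.13, 0.20, 0.03 and 0.04. In MET_FLOX and MET_KO the day 0 and day 14 arrays belong to different array sets, whose part was not tested.

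Of the 50 genes, 46 passed the filter on low signals (at least 4 of 16 arrays above the array median). Ttk, Kif23 and Shcbp1 passed with 4 arrays and Nuf2, Ncapg, Tubb6 and Kif20a with 5. All of these but Ncapg passed through day 2 arrays of MET_FLOX, MET_KO and MET_FLOX_canertinib and day 7 arrays of the arms without canertinib. The filter thus kept them through arrays where they were high. The day 2 calls of Ttk, Shcbp1 and Nuf2 are not independent of it. Birc5 and Ccnb2 lay above the array median on 6 arrays and Plk1 on 7. Without their day 2 arrays none of these would have reached 4. Their day 2 calls are thus not independent of the filter either. Bub1, Bub1b, Melk and Ndc80 were not tested. With arm and day as terms over 16 arrays, limma called 22 of the 46 higher at day 2 than at day 0 and none lower (adjusted p below 0.05 over all genes tested). Of all genes 0.331% were called higher, so these 22 are part of 45 such genes, and 0.0516% of all genes were called lower. Estimates were above 0 for 43 of the 46, and for 5805 of all 13577 genes tested. The spread in this test comes from what arm and day leave over, so an arm that follows another course counts as error. The count was 0 without the day 2 array of MET_KO or of MET_FLOX_canertinib (38 and 39 at an unadjusted p below 0.05), 3 without that of MET_FLOX, and 6, 4 and 6 without the day 0 arrays of MET_FLOX, MET_KO and MET_FLOX_canertinib. It was 10 with the mean of all probe sets of a gene and 12 without an intensity trend in the variances.

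Among cyclins, kinases and the chromosomal passenger complex, 7 of 11 tested genes were called higher at day 2. Cdk1, the kinase that drives entry into mitosis, gave 293.5, 3234, 997 and 197 at days 0, 2, 7 and 14 across MET_FLOX, 52, 4354, 784.5 and 215 across MET_KO, 102, 2432.5, 192 and 127 across MET_FLOX_canertinib, and 89, 550, 297 and 38 across MET_KO_canertinib. It rose by 4.05 (SE 0.47, limma adjusted p = 0.00435), in 4 of 4 arms. At day 2 MET_KO_canertinib thus lay above its own other days and under every other arm. Birc5, the survivin subunit of the passenger complex, gave 48.1, 2302, 727 and 118 across MET_FLOX, 19.4, 2665, 382 and 58.8 across MET_KO, 44.6, 1570, 81 and 29.9 across MET_FLOX_canertinib, and 48, 357, 233 and 69.3 across MET_KO_canertinib. Its rise of 4.67 (SE 0.56, adjusted p = 0.00435) starts from signals under the array median, and its day 2 signal in MET_KO_canertinib was the largest relative to day 0 of any of the 50 genes, at 2.54.

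The partners of Cdk1 behaved less evenly. Ccna2, cyclin A2, gave 387, 1657, 852 and 768 across MET_FLOX, 338, 2306, 685 and 468 across MET_KO, 585, 2034, 719 and 101 across MET_FLOX_canertinib, and 444, 745, 603 and 687 across MET_KO_canertinib. Its difference of 1.82 (SE 0.48, adjusted p = 0.164) did not pass. Cks2, a small subunit that binds Cdk1, gave 1462, 3538, 1572 and 1053 across MET_FLOX, 1853, 3828, 1573 and 1219 across MET_KO, 921, 2619, 1073 and 2233 across MET_FLOX_canertinib, and 1311, 1515, 1835 and 862 across MET_KO_canertinib. All its day 0 signals lay far above the array medians, and the difference was 1.001 (SE 0.31, adjusted p = 0.234). Ccnb2, cyclin B2, was called higher by 3.83 (SE 0.73, adjusted p = 0.036), and in MET_KO_canertinib it was higher at day 7 (368) than at day 2 (169). Aurora kinases A and B were both called, at 2.19 (SE 0.32, adjusted p = 0.0104) for Aurka and 2.19 (SE 0.39, adjusted p = 0.0274) for Aurkb. Plk1, a kinase of centrosome maturation and mitotic entry, rose by 2.71 (adjusted p = 0.0467) and Cdca8, the borealin subunit of the passenger complex, by 2.55 (adjusted p = 0.0227).

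Mki67, which coats mitotic chromosomes and is the usual stain for cycling cells, gave 190.5, 1690, 530 and 245 across MET_FLOX, 60, 2839, 326 and 368.5 across MET_KO, 65, 1496, 242 and 102 across MET_FLOX_canertinib, and 170.5, 101, 230 and 172 across MET_KO_canertinib. The day 2 signal of MET_KO_canertinib is the lowest of its arm and under the array median. The difference over 4 arms was 2.96 (SE 0.67, adjusted p = 0.091). Pbk, a mitotic kinase, was 294 and 2137, 153 and 3171, and 480 and 1450 at days 0 and 2 in the other arms and 460 and 400 in MET_KO_canertinib.

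**Figure D3:**
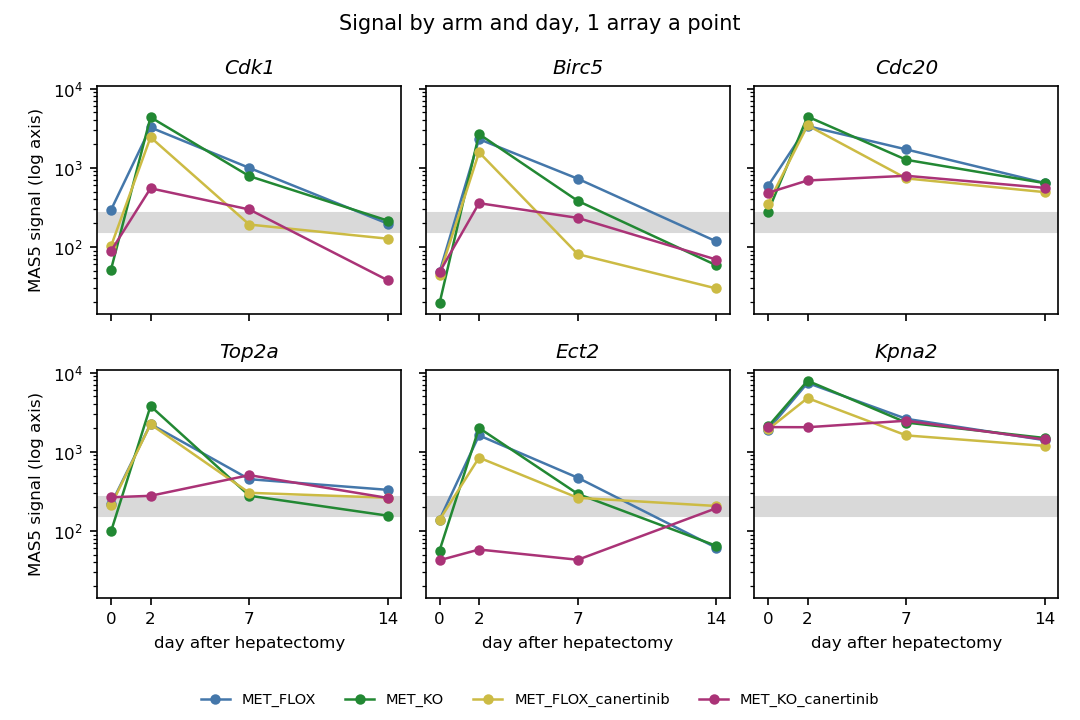
MAS5 signal (log axis) of 6 mitosis genes against day after hepatectomy, 1 array a point, with the range of the array medians in grey. In Top2a, Ect2 and Kpna2 the MET_KO_canertinib line is flat from day 0 to day 2; in Cdk1 and Birc5 it goes up to 550 and 357.

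In the kinetochore and centromere group 2 of 6 tested genes were called higher, Spc25 and Nuf2, both subunits of the NDC80 complex that grips microtubules. Spc25 gave 510, 1807.5, 806 and 435 across MET_FLOX, 324, 3118, 624.5 and 670 across MET_KO, 432, 1444, 545 and 439 across MET_FLOX_canertinib, and 358, 563, 521 and 312 across MET_KO_canertinib. It rose by 1.83 (SE 0.31, adjusted p = 0.0227). Nuf2 rose by 3.96 (SE 0.74, adjusted p = 0.0303) and gave 1315, 1679, 870 and 66 at day 2, the last under its array median. The other subunits of the complex, Spc24 and Ndc80, were less clear. Spc24 gave 120, 2565, 332 and 372 across MET_FLOX, 409, 2486, 456 and 228 across MET_KO, 860, 1275, 266 and 304 across MET_FLOX_canertinib, and 555, 815, 657 and 27.7 across MET_KO_canertinib. Its day 0 signals spread widely, and the difference was 1.98 (SE 0.65, adjusted p = 0.267). Ndc80 had its highest signal at 262 and was not tested. On the probe sets used, no gene of this group differed by more than 1 between days 0 and 2 in MET_KO_canertinib, but Cenpa differed by 2.84 and Cenpf by 1.11 there on other probe sets.

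Of the spindle checkpoint and mitotic exit genes, 3 of 6 tested were called higher. Cdc20, the activator of the anaphase-promoting complex, gave 590, 3363, 1706 and 644 across MET_FLOX, 279, 4441, 1261 and 640 across MET_KO, 353.5, 3436.5, 734 and 493 across MET_FLOX_canertinib, and 483, 691, 792.5 and 558 across MET_KO_canertinib. It rose by 2.53 (SE 0.40, adjusted p = 0.0144). Ube2c, the ubiquitin-conjugating enzyme of that complex, gave 202, 2146, 504 and 210 across MET_FLOX, 62.2, 3865, 273 and 120 across MET_KO, 22.4, 1500, 492 and 37.4 across MET_FLOX_canertinib, and 35, 245, 247 and 55.4 across MET_KO_canertinib, a rise of 4.15 (SE 0.54, adjusted p = 0.00593). In MET_FLOX_canertinib Ube2c still gave 492 at day 7, when Ccnb2 in that arm was back at 48. Ttk, the MPS1 checkpoint kinase, rose by 2.75 (SE 0.50, adjusted p = 0.0274). Mad2l1, the MAD2 checkpoint protein, differed by 2.67 (SE 0.78, adjusted p = 0.206), and in MET_KO_canertinib it gave 42, 134, 344 and 262, highest at day 7. Espl1, separase, differed by 1.08 (adjusted p = 0.197).

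Condensin and chromosome structure genes had 4 of 6 called higher. Smc4, a core ATPase of condensin, gave 372.5, 2530, 864.5 and 379 across MET_FLOX, 320, 3101, 699 and 287 across MET_KO, 392, 1872, 415.5 and 311 across MET_FLOX_canertinib, and 362, 682.5, 561 and 468 across MET_KO_canertinib. It rose by 2.26 (SE 0.35, adjusted p = 0.0139), and its partner Smc2 by 3.07 (SE 0.57, adjusted p = 0.0303). The non-SMC subunit Ncaph gave 436, 1197, 424 and 465 across MET_FLOX, 251, 1833, 544 and 470 across MET_KO, 531, 932, 280 and 539 across MET_FLOX_canertinib, and 489, 289, 636 and 381 across MET_KO_canertinib. In MET_KO_canertinib the difference of day 2 from day 0 was -0.73, the lowest of the 50 genes, but on the other probe set of Ncaph it was 0.61. Its difference over 4 arms was 1.07 (SE 0.43, adjusted p = 0.38). Kif22, a motor that sits on chromosome arms, gave 392, 1833, 578 and 160 across MET_FLOX, 148, 2809, 546 and 324 across MET_KO, 180, 1253, 176 and 370 across MET_FLOX_canertinib, and 76.2, 426, 250 and 416 across MET_KO_canertinib. In every arm but MET_FLOX the day 0 signal lay under the array median, and Kif22 rose by 2.81 (SE 0.50, adjusted p = 0.0269).

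Top2a, the topoisomerase that untangles sister chromatids, gave 218, 2242, 451 and 331 across MET_FLOX, 98.5, 3783, 279 and 156 across MET_KO, 210, 2225, 303 and 263 across MET_FLOX_canertinib, and 266, 278, 507 and 261 across MET_KO_canertinib. The 3 high day 2 signals lie apart from all other arrays, and MET_KO_canertinib reached its highest signal at day 7. Over 4 arms Top2a rose by 2.92 (SE 0.58, adjusted p = 0.0446).

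Spindle motors and assembly factors had 2 of 9 called higher, Nusap1 at 2.16 (SE 0.37, adjusted p = 0.0227) and Hmmr at 1.88 (SE 0.36, adjusted p = 0.0363), both of which bind spindle microtubules. Kpna2, an importin that holds spindle assembly factors, had the highest mean signal of the 50 genes. It gave 1906, 7415, 2608.5 and 1403 across MET_FLOX, 2087, 7907, 2340 and 1495 across MET_KO, 1919, 4775, 1610 and 1188 across MET_FLOX_canertinib, and 2051, 2043.5, 2470 and 1430 across MET_KO_canertinib. All 4 day 0 signals lie close together, and only MET_KO_canertinib stayed there at day 2. The difference over 4 arms was 1.29 (SE 0.29, adjusted p = 0.0856). Tubb6, a beta-tubulin, gave 1554, 2088, 1349 and 23.5 at day 2 and 22 to 58 at day 0, with a difference of 3.70 (SE 0.95, adjusted p = 0.151). Kif11, the motor that pushes spindle poles apart, differed by 1.14 (adjusted p = 0.211).

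Cytokinesis genes had 4 of 8 called higher. Prc1, which bundles the central spindle, gave 367, 2097, 637 and 387 across MET_FLOX, 284, 2594, 750 and 340 across MET_KO, 427.5, 2306, 420 and 250 across MET_FLOX_canertinib, and 439.5, 600, 546 and 533.5 across MET_KO_canertinib. It rose by 2.102 (SE 0.38, adjusted p = 0.0275). Racgap1, the GTPase-activating subunit of centralspindlin, gave 165, 1155, 511 and 254 across MET_FLOX, 365, 1861, 468 and 338 across MET_KO, 480, 1328, 464 and 447 across MET_FLOX_canertinib, and 503, 700, 556 and 454 across MET_KO_canertinib. Every arm was highest at day 2, and Racgap1 rose by 1.73 (SE 0.31, adjusted p = 0.0274). Shcbp1, a midbody protein, gave 57.8, 941, 268 and 34.4 across MET_FLOX, 17.8, 978, 150 and 113 across MET_KO, 24, 855, 170 and 108 across MET_FLOX_canertinib, and 21.1, 193, 163 and 26.7 across MET_KO_canertinib. All day 0 signals lay under the array medians, and Shcbp1 rose by 3.88 (SE 0.51, adjusted p = 0.00593). Anln, which scaffolds the contractile ring, rose by 2.68 (SE 0.54, adjusted p = 0.0491). Ect2, the exchange factor that switches on RhoA at the division plane, gave 139, 1612, 470 and 61.5 across MET_FLOX, 56.5, 2000, 294 and 64.9 across MET_KO, 138, 844, 262 and 207 across MET_FLOX_canertinib, and 42.6, 58.2, 43.2 and 193 across MET_KO_canertinib. In MET_KO_canertinib its highest signal came at day 14, and its signals in this arm lay under the array median on all 4 days. The difference was 2.75 (SE 0.74, adjusted p = 0.167).

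Some genes did not follow their group on the probe set used. Cenpa, the histone of the centromere, differed by -0.15, Cenpf, a kinetochore protein, by -0.12 and Tpx2, an activator of Aurora A, by -0.15 (adjusted p = 0.903, 0.912 and 0.879). Cenpa on this probe set gave 282, 179, 202 and 417 across MET_FLOX, 162, 206.5, 149 and 595 across MET_KO, 739, 523.5, 347 and 861.5 across MET_FLOX_canertinib, and 805, 902, 740 and 760 across MET_KO_canertinib. At days 0 and 2 the canertinib arms were the higher ones, and in no arm without the drug was day 2 the highest. Cenpf gave 432, 372, 420 and 744 across MET_FLOX, 381, 369, 413 and 747 across MET_KO, 556, 596, 958 and 806 across MET_FLOX_canertinib, and 896, 720, 614 and 649 across MET_KO_canertinib. Tpx2 gave 1080, 778, 1102 and 1899 across MET_FLOX, 919, 770, 822 and 1895 across MET_KO, 1431, 1702, 1530 and 1953 across MET_FLOX_canertinib, and 1770, 1632, 1535 and 1361 across MET_KO_canertinib. Neither was highest at day 2 in the arms without the drug. Other probe sets of the same genes showed another course. Cenpa on another probe set gave 1356, 1225, 1051 and 169 at day 2 and 254, 191, 49 and 10 at day 0, and Tpx2 on another gave 888, 1121, 889 and 285 at day 2 and 229, 117.5, 196 and 238 at day 0.

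Over the 50 genes there were 105 probe sets, and 32 genes had more than 1. The mean change from day 0 to day 2 in the 3 arms other than MET_KO_canertinib exceeded 1 on 80 of the 105. In 7 genes, chosen after their values were seen, the probe set with the highest mean differed by less than 1 while another exceeded 1. These were Bub1, Cdca3, Cenpa, Cenpf, Kif2c, Tacc3 and Tpx2. Cdca3, a regulator of mitotic entry, gave 739, 720, 440 and 1592 across MET_FLOX, 838, 619, 486 and 1176 across MET_KO, 1273, 1437, 1250 and 1834 across MET_FLOX_canertinib, and 1143, 1785, 1309 and 1127 across MET_KO_canertinib on the probe set used. Over the 3 arms it differed by -0.10 on this one and by 3.44 on another. Bub1, a checkpoint kinase, gave 58.7, 73.5, 34.3 and 78.3 across MET_FLOX, 12.1, 54.3, 67 and 96.8 across MET_KO, 101, 77.1, 27.9 and 105 across MET_FLOX_canertinib, and 63.7, 32.3, 95.2 and 53.4 across MET_KO_canertinib, all under the array medians. It differed by 0.42 on this probe set and by 3.94 on its other, with day 2 signals of 402, 496, 221 and 18. Kif2c, a motor that takes microtubules apart, gave 560, 999, 948 and 1423 across MET_FLOX, 893, 852, 927 and 1310 across MET_KO, 1114, 1675, 1362 and 1077 across MET_FLOX_canertinib, and 1270, 1330, 1133 and 736 across MET_KO_canertinib, a change of 0.44, and differed by 3.31 on another probe set. With the highest linear mean as the rule, an alternative added after the data were seen, Cdca3 was taken from its other probe set and rose by 2.76 over 4 arms (limma adjusted p = 0.0157), and 23 genes were called. Top2a showed the reverse, with signals of at most 37.3 on another of its probe sets, all under the array medians. The places of these probe sets in the transcripts were not analysed here.

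**Figure D4:**
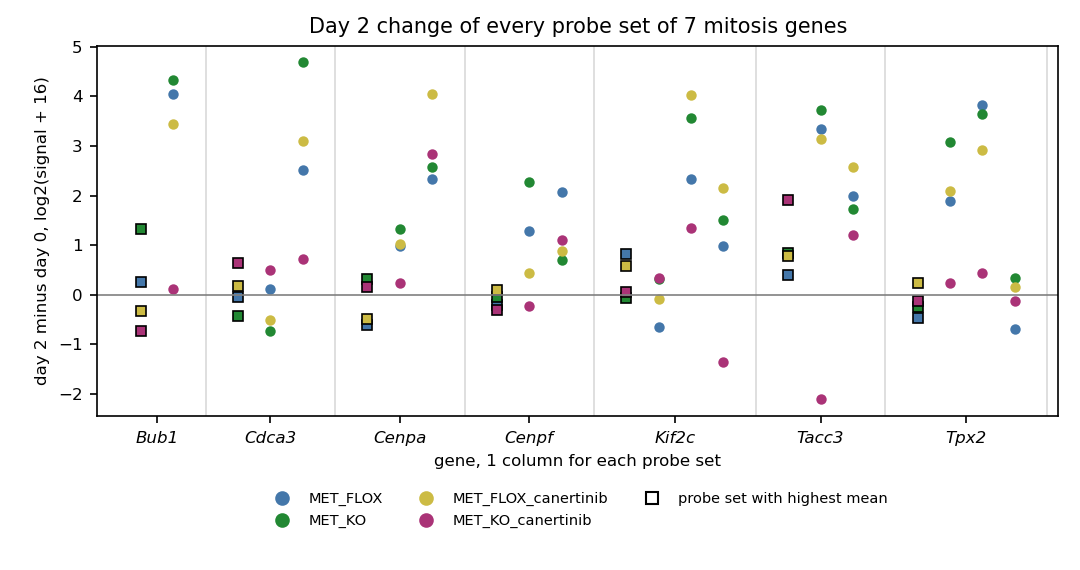
Difference from day 0 to day 2 in log2(signal + 16) for every probe set (columns) of 7 mitosis genes, by arm; outlined squares mark the probe set with the highest mean. For each gene the squares average under 1 in the arms other than MET_KO_canertinib and at least 1 other column averages over 1.

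The question of whether blocking both receptors changes the day 2 response was tested as day 2 minus the mean of days 0, 7 and 14, in MET_KO_canertinib against the mean of the other 3 arms. The difference was below 0 for 40 of 46 tested genes, with a median of -1.66. Over all 13577 genes tested it was below 0 for 5553, with a median of 0.12. In the arms without canertinib days 0, 2 and 7 are low-set arrays and day 14 is a high-set one. MET_KO_canertinib is in the high set on all days, and the part of this was not tested. Limma called 1 of the 46, Top2a, at -3.63 (SE 0.42, adjusted p = 0.0338), where 0.0221% of all genes were called lower. The next smallest p-values belonged to Kpna2 (-1.78, adjusted p = 0.179), Mki67 (-4.03, adjusted p = 0.225) and Cdc20 (-2.29, adjusted p = 0.258). In this test 25 of the 46 and 771 of the 13577 genes had an unadjusted limma p below 0.05. Against MET_FLOX alone 0 of 46 were called, and 0% of all genes in either direction. There 15 of the 46 and 677 of the 13577 genes had an unadjusted p below 0.05. The median difference from MET_FLOX was -1.54 over the 46 and 0.17 over all genes tested. The call of Top2a rests on 1 day 2 array of MET_KO_canertinib. Its adjusted p was 0.0636 to 0.128 without any of 11 other arrays in turn and 0.0427 without MET_KO_canertinib day 14. With the mean of its probe sets the difference was -1.54 (adjusted p = 0.476).

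At day 2 the single arrays of MET_KO_canertinib and MET_FLOX differed by a median of -1.70 over the 50 genes and of 0.26 over all genes tested. These arrays belong to different array sets, which the changes within an arm from day 0 to day 2 do not cross. The day 2 array of MET_KO_canertinib had a Gapdh 3' to 5' ratio of 1.35, against 0.765 to 1.11 on the other day 2 arrays. The summed signal of 5 neutrophil markers (of 6 listed) was 10907 there and 1388 to 2694 on the other day 2 arrays, with 4 of the 5 above the array median. Hepatocyte markers summed to 427208, against 120629 to 461066, lymphocyte markers (5 of 6 measured) to 3902, against 1193 to 4225, and erythroid markers (6 of 7 measured) to 6745, against 4581 to 7392. Bile duct markers (4 of 5 measured) summed to 1538, above the 1187 to 1304 of the other day 2 arrays, while Kupffer cell, endothelial and stellate cell markers lay within their ranges. The part of these in the result was not tested. No marker had a signal of 0.

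Within MET_KO_canertinib the 50 genes were not all flat. The day 2 signal was above the arm's other days for 26 of them (52%, against 20.4% of the genes tested), and 13 differed by more than 1 from day 0 to day 2 (26%, against 4.68%). The 13 were Birc5 (2.54), Shcbp1 (2.49), Cdk1 (2.43), Ube2c (2.36), Kif22 (2.26), Tacc3 (1.91), Plk1 (1.66), Ccnb2 (1.65), Ttk (1.46), Mad2l1 (1.38), Melk (1.202), Smc2 (1.18) and Aurka (1.03). These values depend on the probe set. Among the 32 genes with more than 1, another probe set had the opposite sign in this arm for 21 and lay on the other side of 1 for 11. Of the 13 genes, these were Aurka (-0.70 on its other probe set), Kif22 (-0.08 and 0.64), Smc2 (-0.50 to 1.26 on 4 others) and Tacc3 (-2.11 and 1.21). The other probe set of Aurka and the Smc2 probe set at -0.50 lay under the array median on every array. The probe set at -2.11 is the one on which Tacc3 differed most in the other 3 arms, by 3.41 on average. Cenpa, outside the 13, reached 2.84 on another probe set. Most of the 13 started from low signals, where the size depends on the pseudocount of 16 (Birc5 from 48, Shcbp1 from 21, Ube2c from 35). At day 2 Shcbp1, Ube2c, Ccnb2, Ttk, Mad2l1 and Melk still lay under the array median of 246.3. With every signal under the array median raised to that median, the median change in this arm was 0.13.

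By day 7 most signals were lower than at day 2 in the 3 arms that had been high. From day 2 to day 7 the median difference was -1.38 for MET_FLOX, -2.15 for MET_KO, -1.66 for MET_FLOX_canertinib and -0.15 for MET_KO_canertinib, where 19 of 50 genes were higher at day 7 than at day 2. In that arm 6695 of the 13577 genes tested were higher at day 7. Day 7 against day 0 stood at medians of 0.82, 1.10, 0.10 and 0.48, with 23, 29, 6 and 8 genes above 1 (46%, 58%, 12% and 16%, against 3.87%, 4.93%, 7.34% and 4.20% of the genes tested). At day 7 Birc5 was 727 in MET_FLOX and 381.5 in MET_KO but 81 in MET_FLOX_canertinib, and Tubb6 was 835 and 452 against 54.

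Over 4 arms limma called 0 of 46 genes for day 7 against day 0, with 0.00737% of all genes called higher. An unadjusted p below 0.05 was found for 8 of the 46 and 662 of all 13577 genes. For day 14 against day 0 it called 0 of 46, with 0.0147% of all genes called higher and 0.0663% lower. Here 1 of the 46 and 2240 of the 13577 genes had an unadjusted p below 0.05. In the arms without canertinib day 14 lies in another array set than day 0, and the part of this was not tested. For day 7 against day 2 limma called 0 of 46 and 0% of all genes in either direction. Here 34 of the 46 and 896 of the 13577 genes had an unadjusted p below 0.05. Without the MET_KO_canertinib arm, 21 of the 46 were called lower at day 7 than at day 2, among 99 genes in all, and 19 without its day 2 array alone. At day 14 the single arrays of MET_KO, MET_FLOX_canertinib and MET_KO_canertinib differed from MET_FLOX by medians of 0.04, -0.08 and -0.06. Among the lowest values relative to day 0 were Spc24 in MET_KO_canertinib at 27.7, from 555 at day 0, and Ccna2 in MET_FLOX_canertinib at 101, from 585. The arms without the drug held such values too, with Smc2 in MET_FLOX at 24.4, from 202, and Mad2l1 in MET_KO at 29.9, from 210. The MET_KO_canertinib day 14 array had a neutrophil marker sum of 42072, the highest of the 16 and followed by 10907, and the MET_FLOX_canertinib day 14 array had the highest Gapdh ratio, 2.24. Their part in these values was not tested.

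Averaged over the 4 days, the canertinib arms differed from the others in 9 of 46 genes, with 5 called higher (Cenpa, Cdca3, Cenpe, Cenpf and Tpx2) and 4 lower (Cdk1, Ube2c, Ccnb2 and Spc25). Of all genes 24% were called higher and 10.6% lower, so the 10.9% and 8.70% of these genes are no larger a share. Cdk1 was lower, at -1.30 (SE 0.34, adjusted p = 0.0111) and Cenpa higher by 1.42 (SE 0.21, adjusted p = 0.00175). Of the 5 called higher, 4 are among the 7 genes whose probe sets disagreed. The drug moves with the array set and with the Gapdh ratio, whose part was not tested. Adding the array set to the model left 0 of 46 called, with median-centred arrays 2 were higher and 14 lower, and 14 were called without MET_KO_canertinib day 14. The shares of all genes called in these alternative fits are not given here, so these counts cannot be set against a background. Knockout against flox arms called 0 of 46 (0 at an unadjusted p below 0.05), with 0% of all genes called in either direction, and the interaction of genotype and drug 0 of 46 (1 at an unadjusted p below 0.05), with 0.0147% of all genes called higher. Of all 13577 genes, 322 and 601 had an unadjusted p below 0.05 in these comparisons.

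Among 85 further genes of mitosis, 82 had a probe set and 67 were tested. Stmn1, which destabilises microtubules, rose at day 2 by 2.13 (SE 0.30, adjusted p = 0.00925). It gave 1486, 7213, 3244 and 1355 across MET_FLOX, 1043, 9025, 2051 and 1911 across MET_KO, 1419, 7738, 1968 and 1386 across MET_FLOX_canertinib, and 1806, 2988, 2514 and 964 across MET_KO_canertinib. Tubb5, a beta-tubulin, gave 2736, 7160, 3351 and 3499 across MET_FLOX, 2903, 9649, 2867 and 3396 across MET_KO, 2987, 8848, 2663 and 2978 across MET_FLOX_canertinib, and 2435, 3650, 3957 and 3614 across MET_KO_canertinib and rose by 1.31 (SE 0.245, adjusted p = 0.0303). Stmn1 and Tubb5 were the 2 of 67 called higher, and 0 were called lower, with 62 estimates above 0 and a median of 0.69. Over all genes tested 5805 of 13577 estimates were above 0, with a median of -0.06. Of the other genes with high signals, none was called. Tubb4b, a beta-tubulin, gave 6016, 11110, 7678 and 3843 across MET_FLOX, 4776, 12192, 7052 and 4818 across MET_KO, 4468, 15032, 2616 and 2484 across MET_FLOX_canertinib, and 4545, 4534, 4214 and 4629 across MET_KO_canertinib, with a difference of 0.99 (adjusted p = 0.28). Ncaph2, of condensin II, gave 1830, 2340, 1681 and 2452 across MET_FLOX, 2255, 2908, 1834 and 2430 across MET_KO, 2277, 4499, 3578 and 3958 across MET_FLOX_canertinib, and 2366, 2916, 2283 and 4051 across MET_KO_canertinib (0.50, adjusted p = 0.298). These genes have high signals on all days. Cit, a kinase of the midbody, gave 3514, 3102, 4983 and 7372 across MET_FLOX, 3102, 2425, 3984 and 7977 across MET_KO, 6602, 6748, 5660 and 5925 across MET_FLOX_canertinib, and 5731, 7649, 8133 and 5647 across MET_KO_canertinib (-0.02, adjusted p = 0.988). Pttg1, securin, gave 5976, 4575, 8043 and 4459 across MET_FLOX, 8318, 4658, 5603 and 4771 across MET_KO, 4623, 3250, 3924 and 4893 across MET_FLOX_canertinib, and 5365, 4619, 4694 and 2694 across MET_KO_canertinib (-0.49, adjusted p = 0.44). The medians of the 82 genes between days 0 and 2 were 0.89, 1.32, 0.66 and 0.10 across MET_FLOX, MET_KO, MET_FLOX_canertinib and MET_KO_canertinib. Single probe sets of these genes were not compared, and the part of their choice in these medians was not tested.

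Mcm2 to Mcm7, which unwind DNA in S phase, differed by medians of 2.77, 3.03, 1.99 and 0.44 from day 0 to day 2 in the same order, and by 0.60, 0.12, 0.38 and 0.54 from day 0 to day 7. The day 7 medians of the 50 mitosis genes in that order were 0.82, 1.10, 0.10 and 0.48, above those of the Mcm genes in the arms without the drug and below them in the arms with it. These differences were not tested.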

How the data were processed

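Total RNA of mouse liver, 6 ug an array per the labels, was hybridised to 16 Affymetrix arrays. The authors deposited 1 intensity for each probe set, the linear signal of MAS5 per the submitters' processing notes, with no version stated. Trimmed by 2% at each end, every array's mean was 500. Of 45101 probe sets, 64 controls were left out, and of the rest 34945 named 1 gene, 932 several and 9160 none. Only those of 1 gene were used, as log2(signal + 16). Probe sets with at least 4 of 16 arrays above their own array's median were kept, and the one with the highest mean log2 value stood for its gene (13577 genes). Limma 3.58.1 in R 4.3.3 was fitted with arm and day as terms and intensity-trended moderated variances (9 residual degrees of freedom, 6 for the day 2 response), with two-sided p-values adjusted over all genes (Benjamini-Hochberg). There are no replicate arrays, so p-values measure only the spread that arm and day leave over, and the number of arrays limits the precision. The scripts were tested on simulated data.

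The 50 genes, the other lists, the tests and the alternatives were chosen with earlier results of these data known. Genes were named by rule as the 3 of each role with the highest mean signal, those against their role's direction at day 2, the 3 largest and 3 smallest day 2 changes in MET_KO_canertinib, and the 6 other mitosis genes with the highest signals (none was called lower). Further genes were named after their values were seen. Alternatives were pseudocounts of 1 and 64, a floor at the array median, median centring, quantile normalization, no filter, the mean of all probe sets, the array set as a term, no intensity trend, and leaving out the MET_KO_canertinib arm or each array. The probe set with the highest linear mean was added after the data were seen. Promoter windows are RefSeq's.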

Additional observations from a re-analysis of the deposited data

Results flagged for a closer look

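Top2a differed between the arms by a test of the difference itself, with a day 2 response of MET_KO_canertinib minus the mean of the other 3 arms of -3.63 (limma adjusted p = 0.0338). For 6 genes the day 2 array of MET_KO_canertinib lay under its day 0 array while the other 3 arms all went up; this difference in direction was not tested for single arrays. The changes in MET_KO_canertinib were -0.73 for Ncaph, -0.67 for Mki67, -0.65 for Ndc80, -0.20 for Pbk, -0.018 for Tubb6 and -0.0052 for Kpna2. The last 2 are close to 0, and Mki67, Tubb6 and Ndc80 lay under the array median at both days. The result for Ncaph and Tubb6 is not shared by their other probe sets, which differed by 0.61 and 2.22 in MET_KO_canertinib. The other probe set of Tubb6 lay under the array median on every array and did not rise in the other 3 arms.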

How the results depend on the processing

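The 22 genes called higher at day 2 became 10 with the mean of all probe sets and 12 without the intensity trend, and 0 to 32 when single arrays were left out. Genes called for day 7 against day 2 went from 0 to 21 without the MET_KO_canertinib arm, and from 0 to 19 over single arrays. For the day 2 response of MET_KO_canertinib, the 1 call became 4 with the floor at the array median, 0 with no filter (28 at an unadjusted p below 0.05 by limma), 0 with the mean of all probe sets (29), and 0 to 1 over single arrays; it could not be fitted without a day 2 array. The 9 calls for canertinib became 16 with centring, 0 with the array set as a term, and 6 to 14 over single arrays. The shares of all genes called for canertinib in these fits are not given here. Median changes from day 0 to day 2 moved to 2.05 (pseudocount 64) and 2.04 (floor) in MET_FLOX, to 2.75 (floor) and 2.80 (mean of probe sets) in MET_KO and to 0.13 (floor) in MET_KO_canertinib, and MET_KO_canertinib minus MET_FLOX at day 2 moved to -2.21 with centring. Of 805 values for 30 named results, 677 kept direction and side of the threshold, 97 lost the call, 18 gained it and 13 changed sign. Those that changed sign at day 2 against day 0 were, with the mean of all probe sets, Cenpf (0.67), Tpx2 (1.08), Cenpa (1.23), Tubb4b (-0.069) and Cit (0.25), Cit with centring (0.056) and Cdca3 without the MET_KO_canertinib arm (-0.10). Over single arrays left out, the range was -0.23 to 0.073 for Cenpf, -0.10 to 0.21 for Cdca3, -0.27 to 0.0067 for Tpx2 and -0.21 to 0.19 for Cit. Apart from fewer arrays or genes, the cause was not tested. No paired analysis was possible because each arm and day has 1 array and the labels carry no replicate numbers. Signals under the array median, where many of these genes lie at day 0, limit the size of the changes.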
